A study of Saccharomyces cerevisiae with 6 samples.

Results

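The genes described here are those of ergosterol synthesis and of the mevalonate pathway that feeds it, together with their electron donors, their transcription factors and the proteins that esterify or transfer sterols. A list of 31 gene names was matched to the deposited table of mRNA levels by gene name, and by systematic name where the name was missing. Of the 31 genes, 30 had a row among the 5297 genes listed. The remaining gene, *ERG29*, was not analysed here.

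The mRNA came from budding yeast (*Saccharomyces cerevisiae*, SK1 background), with 3 *SPO11* cultures and 3 *spo11-YF* cultures. *SPO11* cells make the programmed DNA breaks of meiosis, whereas *spo11-YF* cells carry an HA-tagged, catalytically dead *spo11* marked with *URA3* and form no breaks. Both strains are diploids with *ho::LYS2* and *lys2*, and both are homozygous for *ndt80Δ::TRP1*, which holds cells in meiotic prophase, and for *pph3Δ::LEU2*, which removes the catalytic subunit of protein phosphatase 4. Each genotype is represented by a single strain, without drug treatment, sampled after transfer to potassium acetate sporulation medium. The strains also differ at *LEU2*, of which the paper gives the *SPO11* cells more copies than the *spo11-YF* cells. The table gives 1 usable value per gene, a normalized count that the authors averaged across both genotypes. The levels below therefore describe the 2 genotypes averaged together, and neither the spread between cultures nor a difference between *SPO11* and *spo11-YF* cells could be computed from them.

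In the averaged libraries early meiotic genes were high and most mid-meiotic genes were low, judged by short lists of meiotic genes. These lists do not by themselves show a meiotic stage or an arrest, since *NDT80*, which the mid-meiotic genes need, is deleted in both strains. All 9 early meiotic genes examined, among them the recombinase gene *DMC1* and the meiotic kinase gene *IME2*, lay in the top 10% of genes by level. Of 7 mid-meiotic genes that depend on Ndt80, 6 lay below the 25th percentile. The exception was *SPS2*, at percentile 72.3. Over all listed genes the mean normalized counts summed to 2759217, with a median of 218.5 counts per gene and a lowest value of 8.21. The depth of each library was not given. In such bulk RNA, expression in fewer cells and less mRNA per cell cannot be told apart.

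Ergosterol is the main sterol of fungal membranes, the counterpart of cholesterol in animals. Its synthesis starts from acetyl-CoA, passes through mevalonate and farnesyl diphosphate to squalene, and ends with a series of reactions on the sterol ring in the endoplasmic reticulum. Several of the late steps need molecular oxygen and heme. Farnesyl diphosphate is also the source of dolichol, ubiquinone, heme A and prenyl anchors on proteins. Yeast stores surplus sterol as steryl esters in lipid droplets.

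To compare genes with each other, each mean was divided by the coding length of the gene in the S288C reference, since longer mRNAs yield more reads. This quotient is the level, given in counts per kb. The percentile of a gene is the percentage of the 5276 genes with a known coding length that had a lower level. Where a percentile is given without division by length, it is the percentage of all 5297 listed genes with a lower mean. The 30 genes ranged from 55.8 to 4502 counts per kb, which is an 80.6-fold range. Their median was 353 counts per kb, against 165 counts per kb for all genes. The median gene of the pathway stood at percentile 76.1. Of the 30 genes, 23 lay above the median of all genes and 7 lay below it, namely *ERG12*, *ERG20*, *ERG24*, *ERG28*, *ERG3*, *ECM22* and *ARE1*. The members were 0.57% of the genes and held 1.23% of the summed level of all genes.

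The levels of the pathway were uneven. The highest were those of *ERG25*, *ERG6*, *ERG10*, *ARE2*, *ERG13*, *HMG2* and *NCP1*, between 1617 and 4502 counts per kb. These 7 genes held 71.3% of the summed level of all 30. The next member was *ERG2* at 772 counts per kb. Together with *ERG2* and *MVD1* they made up the 9 members in the top 10% of all genes, which began at 726 counts per kb. *MVD1*, at 731 counts per kb, lay just inside this limit, and *ERG11*, at 657 counts per kb, just outside it. A further 7 members lay between the 75th and 90th percentiles, 13 lay between the 25th and the 75th, and only *ARE1* lay below the 25th percentile. Without division by length, *ARE1* stood at percentile 25.3, and only *ERG28*, at percentile 16.1, lay below the 25th. As genes are not replicates and each has 1 value, no test was made of these counts.

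**Figure D1:**
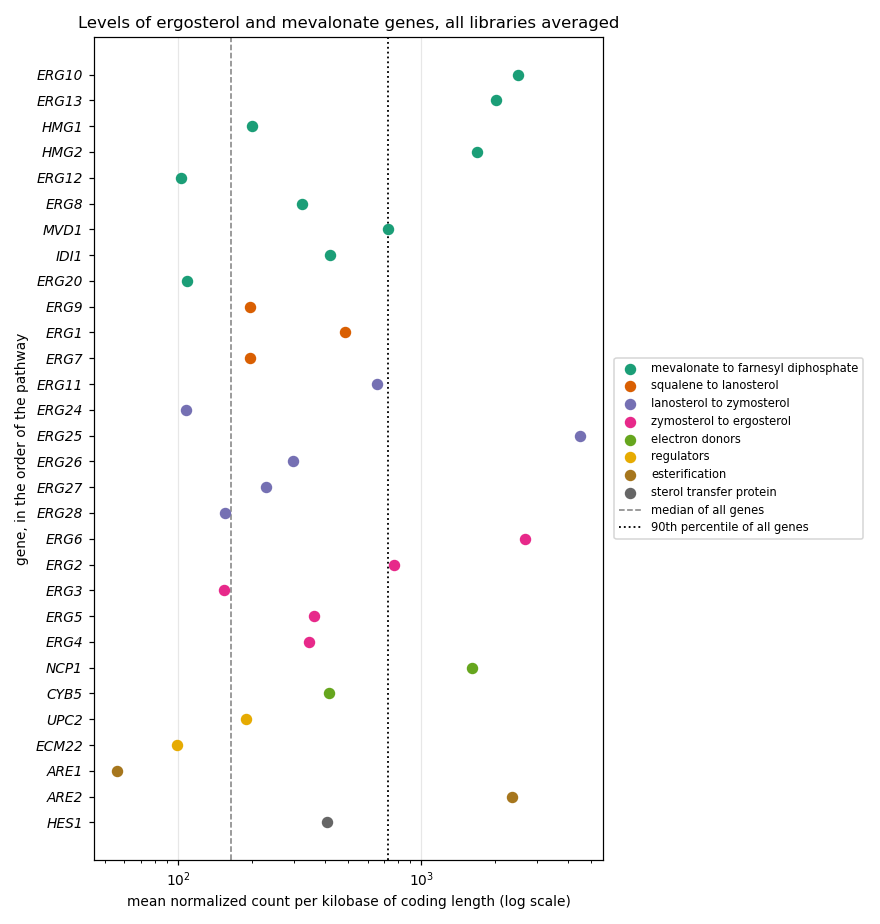
Level of each of the 30 genes in the order of the pathway (vertical axis), in mean normalized counts per kb of coding length on a log axis (horizontal axis), coloured by role. Each point is the authors' mean across both genotypes. High points, such as *ERG25* at 4502 counts per kb, stand beside low ones of the same route, such as *ERG24* at 107 counts per kb.

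The first steps from acetyl-CoA to mevalonate were carried by highly abundant mRNAs. *ERG10* (YPL028W), which encodes acetoacetyl-CoA thiolase, had a mean of 3000.3 normalized counts and a level of 2506 counts per kb, at percentile 98.1. *ERG13* (YML126C), which encodes HMG-CoA synthase, had a mean of 2980.2 normalized counts and a level of 2019 counts per kb. The next step, the reduction of HMG-CoA to mevalonate, is the main point of control of the pathway and is catalysed by the related reductases Hmg1 and Hmg2. *HMG2* (YLR450W) had a mean of 5313 normalized counts, the highest of the 30 genes before division by length, and a level of 1693 counts per kb. *HMG1* (YML075C) had a mean of 634 normalized counts and a level of 200.2 counts per kb, close to the middle of all genes at percentile 57.6.

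From mevalonate onwards all levels of this branch were below those of *ERG10*, *ERG13* and *HMG2*. The mevalonate kinase gene *ERG12* (YMR208W) had 102 counts per kb, at percentile 29.7, so that *ERG10*, *ERG13* and *HMG2* exceeded it 24.5-fold, 19.7-fold and 16.5-fold per length. Without division by length these ratios were 22.0, 21.9 and 39.0, so that the order of the 3 genes depends on the scaling. *ERG8* (YMR220W), which encodes phosphomevalonate kinase, stood at 322 counts per kb. *MVD1* (YNR043W), which encodes mevalonate diphosphate decarboxylase and is also known as *ERG19*, stood at 731 counts per kb, 7.15-fold above *ERG12*. From *ERG12* over *ERG8* to *MVD1* the mRNA levels of consecutive steps thus increased. The values used hold no protein amounts. *IDI1* (YPL117C), which encodes isopentenyl diphosphate isomerase, had 419 counts per kb. *ERG20* (YJL167W), which encodes farnesyl diphosphate synthase at the fork to the other isoprenoids, had 109 counts per kb, at percentile 32.4. *ERG20* and *ERG12* were the only genes of this branch below the median of all genes.

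The genes that take farnesyl diphosphate to the first sterol had intermediate levels. *ERG9* (YHR190W), the squalene synthase gene, and *ERG7* (YHR072W), the lanosterol synthase gene, both had 197 counts per kb, at percentile 56.9. Between them acts squalene epoxidase, the target of the antifungal terbinafine, whose gene *ERG1* (YGR175C) had 483 counts per kb, at percentile 83.5. None of these 3 genes lay in the top 10%.

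A wide gap between genes whose proteins act together was found in the conversion of lanosterol to zymosterol. *ERG25* (YGR060W), which encodes the C-4 methyl sterol oxidase, had a mean of 4187 normalized counts and a level of 4502 counts per kb. It was the most abundant of the 30 mRNAs per length and ranked 35 among all 5276 genes. Erg25 works in a complex with the decarboxylase Erg26, the ketoreductase Erg27 and the scaffold protein Erg28. *ERG26* (YGL001C) had 297 counts per kb, *ERG27* (YLR100W) had 230.1 counts per kb, and *ERG28* (YER044C) had 156 counts per kb. The level of *ERG25* thus exceeded those of its partners 15.2-fold, 19.6-fold and 28.8-fold, in this order. *ERG28* has a coding length of only 447 bases and a mean of 69.8 normalized counts, the lowest mean of the 30 genes, and *ERG25* exceeded it 60.0-fold without division by length and 20.3-fold with 200 bases taken off each coding length.

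The earlier reactions on lanosterol also differed. *ERG11* (YHR007C), which encodes the cytochrome P450 lanosterol demethylase targeted by azole antifungals, had 657 counts per kb, at percentile 88.9. *ERG24* (YNL280C), which encodes the C-14 reductase acting directly after it, had 107 counts per kb, at percentile 31.7, so that *ERG11* exceeded it 6.13-fold.

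Among the genes for the final reactions, *ERG6* (YML008C) stood out. It encodes the sterol C-24 methyltransferase, an enzyme that animals lack, and had a mean of 3075 normalized counts and a level of 2669 counts per kb, at percentile 98.3. *ERG2* (YMR202W), the C-8 isomerase gene, had 772 counts per kb, at percentile 90.8. *ERG3* (YLR056W), the C-5 desaturase gene, was the lowest of these genes with 154 counts per kb, and *ERG6* exceeded it 17.4-fold. *ERG5* (YMR015C), which encodes the C-22 desaturase, a cytochrome P450, and *ERG4* (YGL012W), which encodes the reductase that completes ergosterol, had 361 and 345 counts per kb. Of the 5 genes, *ERG3* alone lay below the median of all genes.

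The enzymes that use oxygen draw electrons from shared donors. *NCP1* (YHR042W) encodes the NADPH-cytochrome P450 reductase that serves Erg11, Erg5 and Erg1. It had a mean of 3356 normalized counts and a level of 1617 counts per kb, at percentile 96.3. Its level was 2.46-fold that of *ERG11*, 3.35-fold that of *ERG1* and 4.48-fold that of *ERG5*, so the mRNA of the shared reductase was more abundant than that of each enzyme it serves. *CYB5* (YNL111C), the gene of cytochrome b5, an electron carrier of sterol and lipid synthesis, had 417 counts per kb. *NCP1* exceeded it 3.88-fold per length, but 22.2-fold without division by length and 1.93-fold with 200 bases taken off each coding length. With 363 bases *CYB5* has the shortest coding length of the 30 genes. Its mean of 151 normalized counts was below the median of all genes, whereas its level lay at percentile 80.4.

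**Figure D2:**
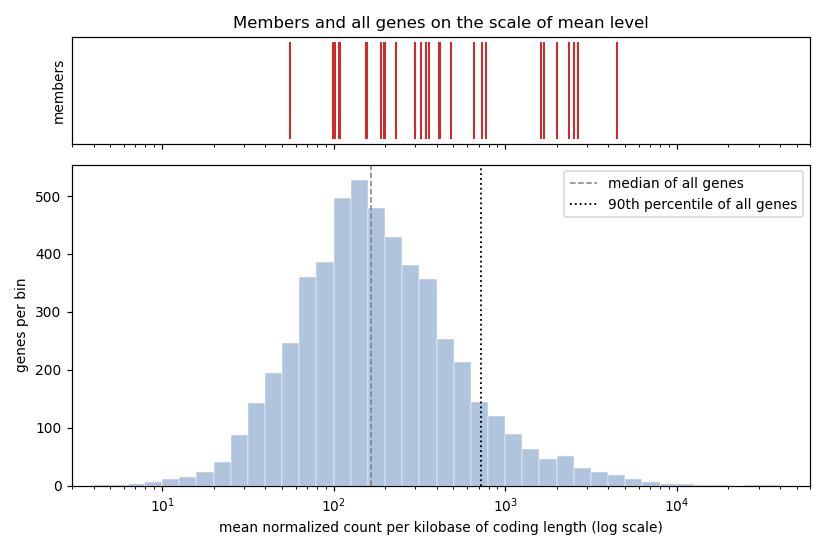
Upper panel: each red line is 1 of the 30 genes. Lower panel: number of genes per bin among the 5276 genes with a coding length (vertical axis). Both panels share a log axis of mean normalized counts per kb of coding length. The members spread from 55.8 to 4502 counts per kb, with 7 of them at 1617 counts per kb or above and none between that value and 772 counts per kb.

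The related genes of the pathway differed in level to unequal degrees. *HMG2* exceeded *HMG1* by 8.46-fold per length. The Hmg2 protein is known as the reductase that is degraded by the Hrd ubiquitin ligase when pathway products accumulate, and Hmg1 as the stable one. The difference was still larger for the sterol acyltransferases, which make steryl esters. *ARE2* (YNR019W) had a mean of 4563 normalized counts and a level of 2366 counts per kb, whereas *ARE1* (YCR048W) had a mean of 102 normalized counts and a level of 55.8 counts per kb, the lowest of the 30 genes at percentile 12.0. *ARE2* thus exceeded *ARE1* 42.4-fold. An open reading frame on the opposite strand, YCR050C, overlaps *ARE1* by 298 of its 1833 coding bases in S288C. YCR050C had no row among the listed genes, and the paper describes its libraries as directional. How reads from that stretch were counted was not tested.

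The transcription factors of the pathway were themselves not abundant. Upc2 and Ecm22 are related zinc cluster proteins that bind the sterol regulatory element in front of ergosterol genes and activate them when sterols are scarce. *UPC2* (YDR213W) had a mean of 519.9 normalized counts and a level of 189.6 counts per kb, at percentile 55.3. *ECM22* (YLR228C) had a mean of 241 normalized counts and a level of 98.6 counts per kb, at percentile 28.4. Without division by length, *UPC2* and *ECM22* stood at percentiles 77.2 and 53.5. *UPC2* exceeded *ECM22* 1.92-fold. *HES1* (YOR237W), also known as *OSH5*, encodes an oxysterol-binding protein homologue that transfers sterols and had 410.2 counts per kb, and its close relative *KES1* had 408 counts per kb. No coding stretch of 31 bases was shared between the genes of any of these pairs in S288C, and 29 of the 30 members shared no such stretch with any other gene, the exception being *ARE1* and the overlapping YCR050C.

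**Figure D3:**
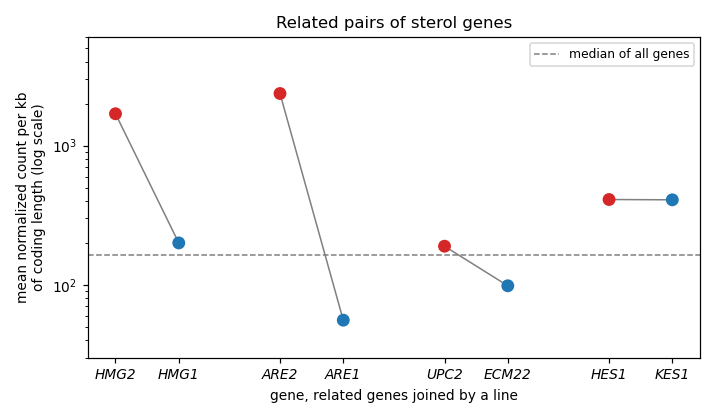
Level of related genes (horizontal axis, joined by lines) in mean normalized counts per kb of coding length on a log axis (vertical axis), each point being the authors' mean across both genotypes. The gap is 42.4-fold between *ARE2* and *ARE1*, 8.46-fold between *HMG2* and *HMG1* and 1.92-fold between *UPC2* and *ECM22*, while *HES1* and *KES1* coincide.

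The promoters of the members were searched for 4 short motifs in the S288C reference (RefSeq assembly R64), on both strands of a window of 300 bases that runs from 250 bases before to 50 bases after the start codon. The core of the sterol regulatory element, TCGTATA, was found for 3 of 30 members (10%), namely *ERG13*, *ERG8* and *ERG2*, against 4.13% of all 6026 windows of this length. The levels of these 3 genes were 2019, 322 and 772 counts per kb. The 27 members without the motif spanned the whole range of the 30 genes, from 55.8 to 4502 counts per kb. The median was 772 counts per kb with the motif and 345 without it. In the top 10% of all genes lay 2 of the 3 and 7 of the 27. No test was made of this difference. TATAAA, a form of the TATA box, was found for 20 members (66.7%), against 45.4% of all windows. In 2 members, TATAAA and TCGTATA both occurred. In neither did the 2 motifs overlap. The core of the site of Rox1, a repressor of hypoxic genes, ATTGTT, was found for 14 members (46.7%), against 35.2% of all windows. GCCGCC, the core of the Ume6 site of early meiotic genes, was found for *HMG1* only, against 5.13% of all windows. A match says only that the letters are present in S288C. Sites further upstream or with other letters were not searched, so a gene without a match may still have a site.

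The 30 genes were also set beside 45 other genes of sterol and prenyl metabolism or its regulation, of which 43 had a row. These included 6 genes for partners of the Hmg and Erg11 proteins and 7 for transcription factors. The members had a median of 353 counts per kb, against 195 counts per kb for the other genes, at percentile 56.6. In the top 10% lay 9 of 30 members, against 6 of the 43 other genes, 2 of these 6 being transcription factor genes. No test was made of this difference. Genes for sterol transfer between membranes had the lowest medians among these lists together with the prenyl branches, 126 and 153 counts per kb. Within the transfer list, however, *NPC2*, a vacuolar sterol-binding protein gene, reached 3292 counts per kb. Among the prenyl branches, *SRT1* and *NUS1*, which encode subunits of enzymes making dolichol precursors, reached 2348 and 1272 counts per kb, whereas *RER2*, which encodes the other catalytic subunit of that activity, had 115 counts per kb. The sterol importers *PDR11* and *AUS1*, known from growth without oxygen, had 451 and 245 counts per kb.

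The genes that act on the abundance of the members' proteins or transcripts differed among themselves. *NSG2* had 751 counts per kb and its relative *NSG1*, both homologues of the mammalian INSIG proteins that bind HMG-CoA reductase, had 93.6 counts per kb. *HRD1*, the ubiquitin ligase gene for Hmg2 degradation, had 450.2 counts per kb. Of the transcription factors, *ROX1* and *MGA2*, the second of which activates genes of fatty acid desaturation, had 1005 and 876 counts per kb and were the highest of 7. The other 5, *SUT2*, *HAP1*, *MOT3*, *SUT1* and *SPT23*, had between 142 and 301 counts per kb, a range that includes *UPC2* but not *ECM22*.

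**Figure D4:**
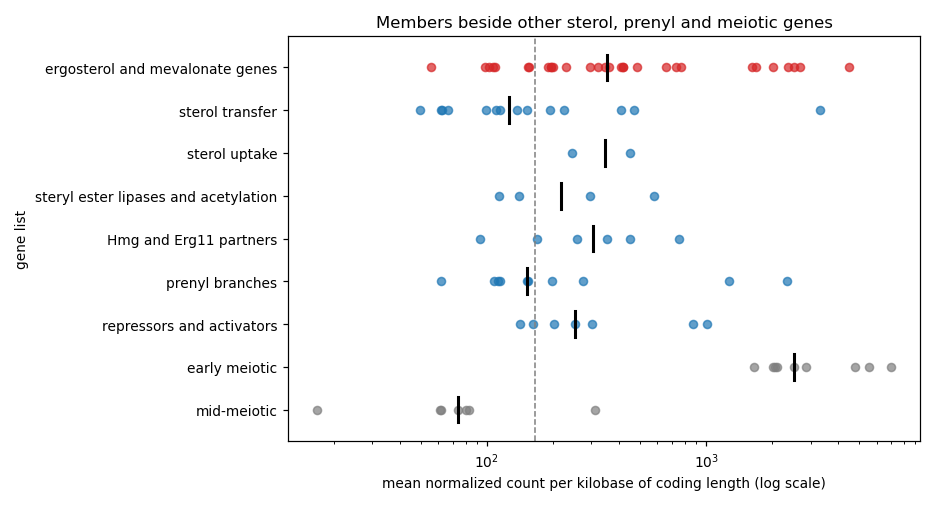
Levels of the 30 genes (red), of 43 other genes of sterol and prenyl metabolism or its regulation in 6 lists (blue) and of meiotic genes (grey). The horizontal axis gives mean normalized counts per kb of coding length on a log scale. Each point is 1 gene, black bars are medians of the list and the dashed line is the median of all genes, 165 counts per kb. All 9 early meiotic genes lie right of that line, and 6 of 7 mid-meiotic genes lie left of it.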

How the data were processed

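Reads were aligned by the authors to the genome of SK1 in the nf-core pipeline (the submitters' processing notes name Trim Galore, STAR, Salmon and DESeq2, versions not given in the sources used here), adjusted the salmon counts for batches with ComBat-Seq and normalized them with DESeq2. The signal column of the deposited table, the authors' mean of normalized counts over all libraries, was the only measurement used. The other columns hold the authors' own comparison of *SPO11* with *spo11-YF* (log2 fold change, standard error, Wald statistic, p-values) and were not used. The planned tests between strains were therefore not made, and no p-value is given. All members were named. Members and lists were chosen with earlier results of these data known.

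Means were divided by the coding length in S288C (assembly R64), found for 5276 of 5297 rows by systematic name. SK1 lengths may differ. *LAM1* and *YSP1*, and *COD1* and *SPF1*, are names of the same gene and were counted once. Fragment selection can lower the counts of short mRNAs. Promoters and shared stretches of 31 bases came from R64, so no coordinates are given. The ranking and the motif search were tested on simulated data. Alternatives were no division by length, a length reduced by 200 bases, a minimum mean of 10 counts, a window without the 50 coding bases and a single strand. The software was matplotlib 3.10.9, scipy 1.17.1, pandas 2.3.3, numpy 2.4.6 and Python 3.11.15.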

Additional observations from a re-analysis of the deposited data

How the results depend on the processing

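No paired analysis was possible because the values used are a mean over all libraries, which holds nothing for single cultures. Another count model, a filter on counts per library and leaving out each replicate, planned in case such values were there, were not run either. The number of members in the top 10% of genes was 9, and 7, 9 and 8 without division by length, with a minimum mean of 10 counts and with 200 bases taken off each coding length. The median percentile of the members, 76.1, was 72.9 with 200 bases taken off, which by construction raises short genes. The ratio of *ECM22* over *UPC2* was 0.52, and 0.46 without division by length. The ratio of *HMG1* over *HMG2* was 0.12 under every length scaling, and that of *ARE2* over *ARE1* lay between 42.1 and 44.6. The ratios of *HMG2* to *ERG12*, *ERG25* to *ERG28* and *NCP1* to *CYB5* moved by over 1.5 times, to 39.0, 60.0 and 22.2 without division by length. Without length, *CYB5* fell below the median gene, to percentile 37.5, and *ECM22* rose above it, to percentile 53.5. The count of members with TCGTATA was 3 in the shorter window and 2 on the gene strand alone.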
